A study of Mus musculus with 9 samples.

Results

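The transcripts of 10 enzymes of glycolysis were followed across the blood lineages of young mouse bone marrow and between 2 genotypes of its stroma. The members were Hk2, Gpi1, Aldoa, Tpi1, Gapdh, Pgk1, Pgam1, Eno1, Pkm and Ldha, taken by symbol from count tables that together listed 15265 genes, with a symbol missing from a table counted as 0. They gave 3060 counts in all, and 7 of the 10 held enough counts for a test in whole libraries. The libraries were made by Drop-seq, a droplet method in which a barcoded bead tags the RNA of 1 cell, from unselected bone marrow of C57BL/6 mice aged 2 to 3 weeks. The genotypes were NG2-cre/Pot1a fl/fl (4 libraries) and NG2-cre/Pot1a wt/wt (5 libraries), each library holding 100 cells, so both carried the Cre transgene. Cre expression follows NG2, a proteoglycan of mesenchymal stromal cells encoded by Cspg4, and in fl/fl mice it removes Pot1a, a protein that binds single-stranded telomeric DNA, from cells in which the NG2 promoter has been active. The deletion is thus aimed at stromal cells and not at blood cells. Libraries are not tied to mice by the labels, and the study names fewer mice than libraries, so p-values measure the spread between libraries and would be too small if libraries share a mouse.

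Glycolysis splits glucose into pyruvate in the cytosol and yields ATP without oxygen. Hexokinase (Hk2) traps glucose as its phosphate, Gpi1 isomerises it, aldolase (Aldoa) cleaves the sugar bisphosphate and Tpi1 interconverts the triose products. Gapdh and Pgk1 then carry out the first oxidation and the first ATP-forming step, Pgam1 and Eno1 rearrange and dehydrate the phosphoglycerate, pyruvate kinase (Pkm) forms pyruvate with a further ATP, and Ldha reduces pyruvate to lactate, which regenerates the cofactor that Gapdh needs. In bone marrow, neutrophils are known for reliance on glycolysis and hold few mitochondria when mature, proliferating lymphoid precursors take up much glucose, and red cells, once they have lost their mitochondria, live on glycolysis alone.

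Many glycolytic promoters carry hypoxia response elements, whose core is ACGTG or GCGTG. The promoters of the 4 members on which the results below turn most (Gpi1 and Pkm between lineages, Ldha between B-cell stages, Pgk1 between genotypes) are given from RefSeq on GRCm38.p6, the patched form of the mm10 build, from 250 bases before to 50 after the transcription start, 5′ to 3′ on the gene's own strand. Capitals mark a core on either strand, so that a core on the opposite strand reads CACGT or CACGC.
Gpi1 (chr7:34230287-34230586, minus strand): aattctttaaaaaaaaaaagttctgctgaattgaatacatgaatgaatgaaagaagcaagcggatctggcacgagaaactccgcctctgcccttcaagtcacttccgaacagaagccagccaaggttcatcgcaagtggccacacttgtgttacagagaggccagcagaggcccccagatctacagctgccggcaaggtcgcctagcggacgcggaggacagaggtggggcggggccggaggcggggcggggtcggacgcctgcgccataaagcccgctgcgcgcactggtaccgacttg
Pkm (chr9:59656326-59656625, plus strand): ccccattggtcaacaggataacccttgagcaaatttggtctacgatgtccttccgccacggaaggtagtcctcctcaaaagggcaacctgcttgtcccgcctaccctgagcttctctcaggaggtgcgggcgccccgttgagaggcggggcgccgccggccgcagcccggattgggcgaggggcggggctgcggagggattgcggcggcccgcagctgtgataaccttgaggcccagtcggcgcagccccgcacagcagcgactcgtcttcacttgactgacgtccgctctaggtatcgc
Ldha (chr7:46846832-46847131, plus strand): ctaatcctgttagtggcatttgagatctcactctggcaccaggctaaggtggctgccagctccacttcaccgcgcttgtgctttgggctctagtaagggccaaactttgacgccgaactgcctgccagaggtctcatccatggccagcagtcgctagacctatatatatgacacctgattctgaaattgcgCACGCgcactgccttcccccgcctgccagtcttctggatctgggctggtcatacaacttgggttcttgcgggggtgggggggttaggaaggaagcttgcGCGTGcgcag
Pgk1 (chrX:106186850-106187149, plus strand): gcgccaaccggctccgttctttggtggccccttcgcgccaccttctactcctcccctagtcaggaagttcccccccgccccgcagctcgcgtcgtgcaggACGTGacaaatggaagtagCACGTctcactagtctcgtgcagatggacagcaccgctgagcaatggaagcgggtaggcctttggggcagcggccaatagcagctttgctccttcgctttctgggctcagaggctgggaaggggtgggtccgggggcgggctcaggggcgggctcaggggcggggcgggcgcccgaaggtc
The Pgk1 window held 2 ACGTG cores, at positions -150 and -131 from the start, and 5 copies of the GC box GGGCGG, counted on both strands. Ldha held 2 GCGTG cores at -59 and 40, and the Gpi1 and Pkm windows held neither core. Over all 10 members, 7 windows held ACGTG or GCGTG, against 43.8% of 27025 promoters of the same length, and 7 held GGGCGG, against 35.9%. These are matches of letters, not binding sites. The member windows held 56.7% (Gapdh and Ldha) to 67.3% (Hk2) G and C bases, against a median of 52.7% over all promoters. Promoters of like base content were not compared, so the shares do not show an excess of either motif. In the mm10 annotation Gpi1 spans chr7:34201330-34230336 on the minus strand, and Pkm (chr9:59656368-59679375), Ldha (chr7:46841475-46855627) and Pgk1 (chrX:106187100-106203699) lie on the plus strand.

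Of 900 barcodes, 899 were kept. Library totals ran between 119459 (Pot1a fl/fl 3) and 465277 counts (Pot1a fl/fl 1), and the shallowest wt/wt library (wt/wt 5) held 143345. Pot1a itself gave 10, 3, 1 and 15 counts in the fl/fl libraries 1 to 4, against 3, 9, 10, 6 and 2 in the wt/wt libraries 1 to 5, and Cspg4 gave 5, 1, 0 and 1 counts, against 0, 1, 0, 0 and 0, so these counts check the genotype labels little. Libraries wt/wt 2 and 3 shared 19 barcodes, and no other pair of libraries shared any. Clusters were built without the members and related pathway genes and were named by markers: 266 granulocyte-like, 263 erythroid-like, 229 B-lineage-like, 64 monocyte/macrophage-like and 17 mesenchymal/osteolineage-like cells, with 60 cells of 1 cluster left unnamed. The Pot1a fl/fl libraries drew 35.7% ± 7.56 (SD, n = 4) of their counts from granulocyte-like cells and 24.3% ± 6.14 from erythroid-like cells, against 22.5% ± 4.47 and 42.7% ± 8.49 (SD, n = 5) in wt/wt libraries.

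Of the 3 lineages compared, granulocyte-like cells had the highest summed level of the 10 members and erythroid-like cells the lowest. The sum leaves out Hk1, Bpgm and Pklr, other glycolysis genes whose levels by lineage are not given here. Granulocyte-like cells gave 42.9% of all member counts and 28.5% of the counts of all genes, whereas erythroid-like cells gave 15.98% of the member counts and 33.8% of all counts. B-lineage-like cells gave 22.7% and 24.2%. Summed over the 10 members, the pooled level was 1761 counts per 1000000 counts (CPM) in granulocyte-like cells (95% Poisson interval 1667 to 1859, counting error only), 1096 (1016 to 1181) in B-lineage-like cells and 552 (504 to 604) in erythroid-like cells. A CPM here is a share of all counts of a class, and each gene is compared only with itself. Counts were summed over cells, so fewer expressing cells and less RNA per cell were not told apart here.

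**Figure D1:**
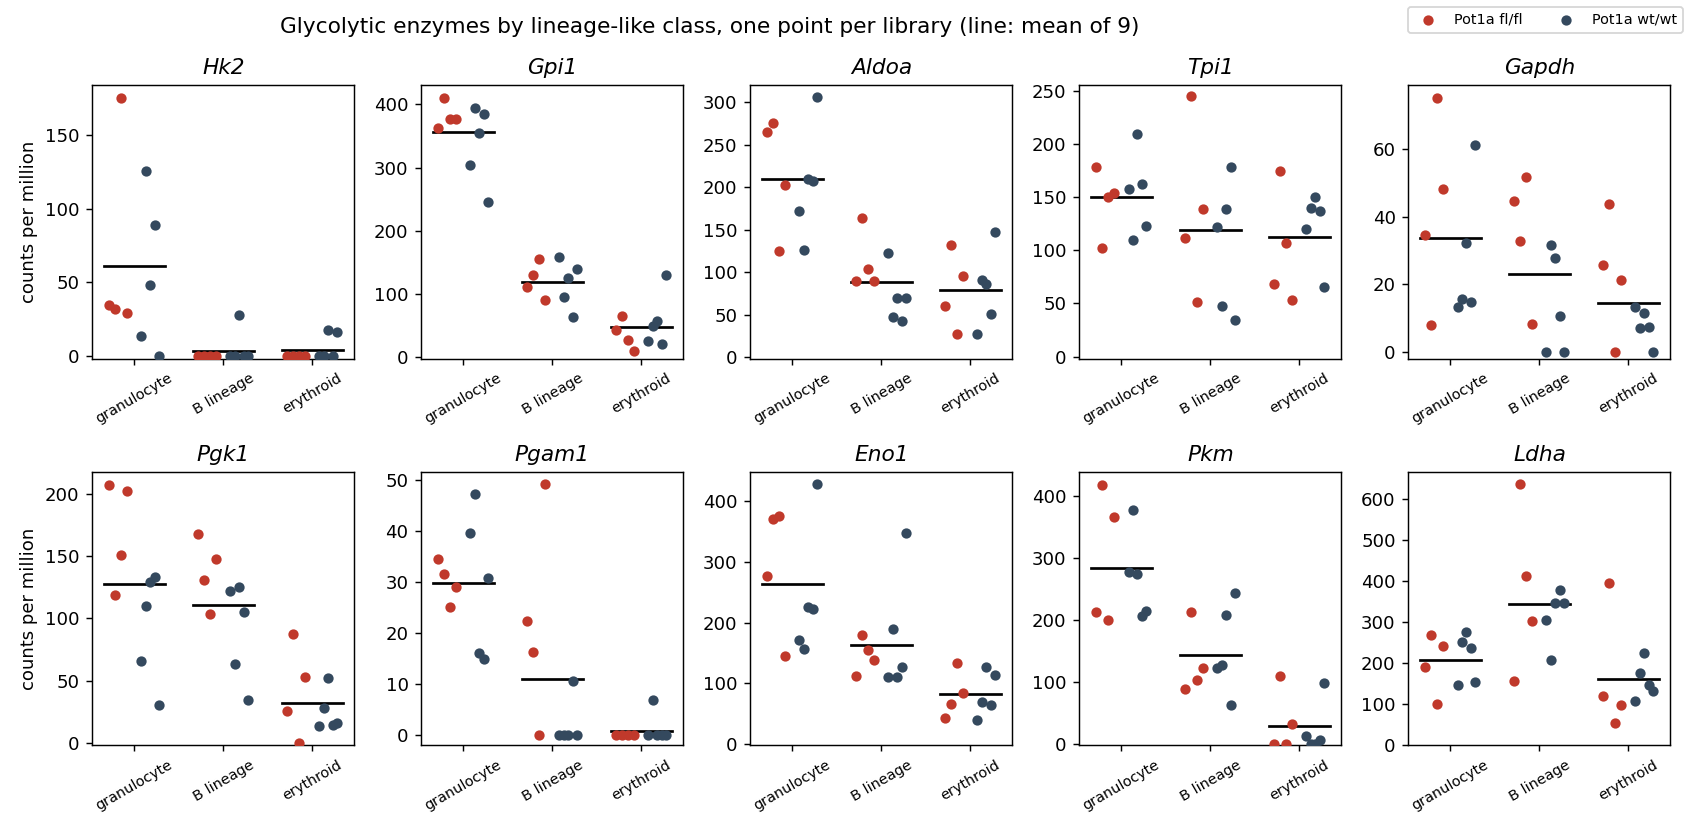
Each panel gives 1 enzyme in glycolytic order, with CPM on the vertical axis and a point for each library within granulocyte-like, B-lineage-like and erythroid-like cells (Pot1a fl/fl red, wt/wt dark blue, line at the mean of 9 libraries). For Gpi1 every granulocyte-like point, at 245 or above, lies over every B-lineage-like point, at 159 or below, while for Ldha the B-lineage-like mean of 344 is the highest of the 3.

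Gpi1, which isomerises glucose phosphate to fructose phosphate, was the only member whose granulocyte-like levels did not overlap those of either other lineage. Its level over the 9 libraries had a lowest, median and highest value of 245, 376 and 411 CPM in granulocyte-like cells, against 63.2, 125 and 159 CPM in B-lineage-like cells and 10.6, 42.7 and 131 CPM in erythroid-like cells. The lowest granulocyte-like library thus stood above the highest library of either other lineage. The share of all genes that separate in this way was not computed. In edgeR's quasi-likelihood test within libraries, the log2 fold of granulocyte-like over erythroid-like cells was 3.41 (SE 0.28, adjusted p = 1.3e-09) and that over B-lineage-like cells 2.24 (SE 0.20, adjusted p = 1.54e-09). Granulocyte-like cells held 59.2% of all Gpi1 counts.

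Pkm, the pyruvate kinase of most tissues outside liver and red cells, had the largest fitted fold over erythroid-like cells of the 5 called members. It had 201, 274 and 418 CPM in granulocyte-like cells (lowest, median, highest), against 63.2, 123 and 243 CPM in B-lineage-like cells and 0, 7.24 and 110 CPM in erythroid-like cells. Of the 16 erythroid-like counts, 11 came from wt/wt 5 and fl/fl 2, and 4 libraries had none. The log2 fold was 4.23 over erythroid-like cells (SE 0.45, edgeR adjusted p = 7.76e-08) and 1.66 over B-lineage-like cells (SE 0.22, edgeR adjusted p = 6.77e-07). Pklr, the pyruvate kinase gene of liver and red cells, gave 14 counts in all fl/fl libraries and 49 in all wt/wt libraries and did not pass the filter.

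Eno1, the enolase that dehydrates phosphoglycerate, had 145, 226 and 429 CPM in granulocyte-like cells, 110, 139 and 347 CPM in B-lineage-like cells and 39.9, 69.7 and 134 CPM in erythroid-like cells. Its granulocyte-like and B-lineage-like ranges overlapped, and so did the erythroid-like and B-lineage-like ranges, but all 9 granulocyte-like values lay above all 9 erythroid-like ones. For this separation too the share of all genes was not computed. The log2 fold was 2.04 over erythroid-like cells (SE 0.24, edgeR adjusted p = 2.64e-07) and 1.24 over B-lineage-like cells (SE 0.22, edgeR adjusted p = 4.07e-05). Of the 451 windows of 50 bases in the last 500 bases of the Eno1 transcript, 75.2% also occur in other genes, 4 of them pseudogenes, so its count may miss reads that matched several places.

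Ldha, which makes lactate from pyruvate, followed another order. It had 100, 237 and 274 CPM in granulocyte-like cells, against 156, 346 and 638 CPM in B-lineage-like cells and 53.7, 131 and 394 CPM in erythroid-like cells. The 3 ranges overlapped. By the edgeR test Ldha was higher in B-lineage-like than in erythroid-like cells (log2 fold 0.92, SE 0.21, adjusted p = 0.000947) and higher in granulocyte-like than in erythroid-like cells (0.88, SE 0.20, adjusted p = 0.00107), whereas granulocyte-like over B-lineage-like cells gave -0.04 (SE 0.21, adjusted p = 0.910).

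Tpi1, the triose phosphate isomerase, had the most similar medians in the 3 lineages among the tested members. It had 103, 154 and 210 CPM in granulocyte-like cells, against 34.7, 122 and 245 CPM in B-lineage-like cells and 53.2, 120 and 175 CPM in erythroid-like cells, with ranges that overlapped throughout. The log2 fold of granulocyte-like over erythroid-like cells was 0.90 (SE 0.24, edgeR adjusted p = 0.00353). Granulocyte-like over B-lineage-like cells was not tested for Tpi1, which did not pass the filter there.

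All 5 members tested between granulocyte-like and erythroid-like cells were higher in granulocyte-like cells, with a median log2 fold of 2.04 beside a median of -0.11 over all 1207 genes tested, of which 57% were called (321 up, 367 down). Between granulocyte-like and B-lineage-like cells 3 of 4 members were called, all up, where 49.9% of 1187 genes were called (291 up, 301 down). Between B-lineage-like and erythroid-like cells the 1 member tested was called up, where 40.6% of 1427 genes were called (298 up, 282 down). The filter asks for enough counts in enough of the sums of a library and lineage, whichever lineage they come from, and not for a high total. The tested members are thus those well counted in many sums, which can lie mostly in 1 lineage, and not all 10. Pkm, Gpi1 and Eno1 gave 219, 273 and 191 counts in granulocyte-like cells, against 16, 40 and 72 in erythroid-like cells. Their passing thus leaned on the lineage in which they were high. The tallies and the member median describe the tested members only and lend no support beyond the single folds. These folds rest on TMM scaling, which holds most genes level between classes. With total counts as the only scaling the median of all genes moved to -0.55 between granulocyte-like and erythroid-like cells and 25.1% of 875 calls were up, and there Ldha (log2 fold 0.45, edgeR adjusted p = 0.0594) and Tpi1 (0.46, edgeR adjusted p = 0.112) were no longer called. Between granulocyte-like and B-lineage-like cells that scaling moved the median to -0.64 with 20.9% of 904 calls up, and Ldha was then lower in granulocyte-like cells (-0.60, edgeR adjusted p = 0.0155). Gpi1, Pkm and Eno1 were called up in both comparisons under either scaling.

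The other 5 members did not pass the filter for these tests, and their values are given as levels. Aldoa was among them with 165 granulocyte-like and 69 erythroid-like counts, against 113 and 103 for Tpi1, which was tested. Aldoa, the aldolase of muscle and blood cells, had 125, 207 and 307 CPM in granulocyte-like cells, against 42.1, 89.3 and 164 CPM in B-lineage-like cells and 26.6, 86.5 and 147 CPM in erythroid-like cells. Pgk1 had 30.7, 129 and 207 CPM in granulocyte-like cells, 34.7, 122 and 167 CPM in B-lineage-like cells and 0, 25.6 and 87.6 CPM in erythroid-like cells. Both therefore overlapped between lineages, Pgk1 with nearly equal medians in granulocyte-like and B-lineage-like cells. Hk2, a regulated hexokinase that binds mitochondria, gave 38 counts in granulocyte-like cells, 2 in B-lineage-like cells and 4 in erythroid-like cells. Pgam1, the mutase, gave 23, 10 and 1 counts in the same order of classes. Gapdh gave 22, 13 and 12 counts in that order. Of the windows in the end of its transcript 90.5% also occur in other genes, 135 of them pseudogenes, and those other genes held 38 counts, so the Gapdh counts are uncertain.

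Pooled levels also differed along maturation within each lineage. Promyelocyte-like cells (62 cells, led by Elane, Ctsg and Mpo), the earliest granulocyte-like stage, had a summed level of 2187 CPM (95% Poisson interval 2018 to 2366), myelocyte-like cells (159 cells, led by Chi3l3, Camp and Ngp) 1528 (1408 to 1655) and late neutrophil-like cells (45 cells, led by Mmp8 and Retnlg) 1353 (1092 to 1657). The intervals of the last 2 stages overlapped. Tpi1 stood at 258 CPM (202 to 325) in promyelocyte-like cells, 86.3 (59.8 to 121) in myelocyte-like cells and 87.3 (32.0 to 190) in late neutrophil-like cells. Pkm differed little, at 280 (221 to 348), 310 (257 to 370) and 262 (155 to 414) CPM in the same order. No library held at least 10 cells of both the first and the last of these stages, and with at least 3 cells no member passed the filter, so these are pooled values with counting error only.

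**Figure D2:**
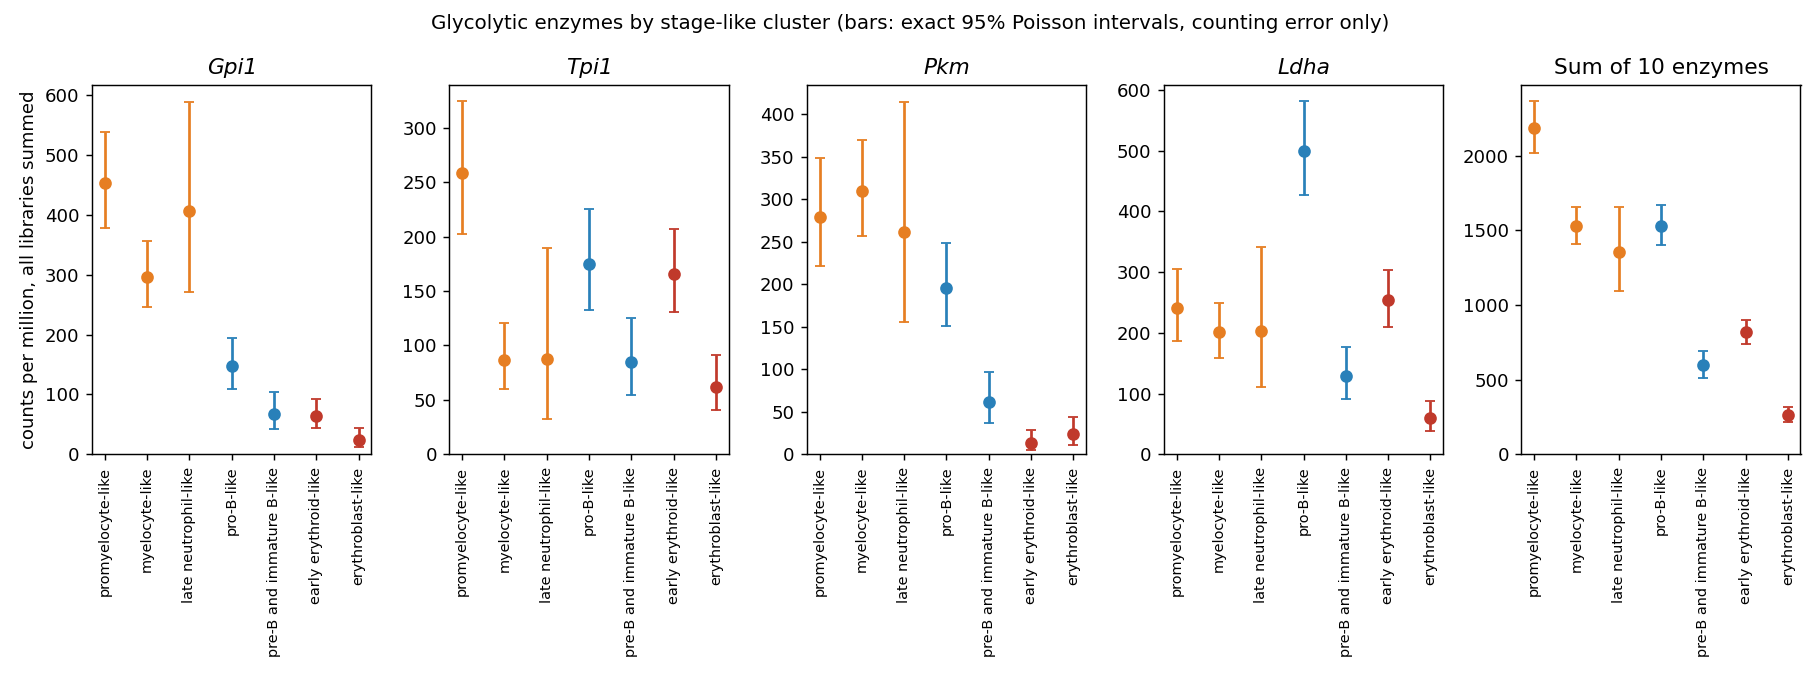
Pooled CPM of 4 enzymes and of the sum of 10 on the vertical axis, by stage-like cluster on the horizontal axis (orange granulocyte-like, blue B-lineage-like, red erythroid-like, each from early to late); bars are exact 95% Poisson intervals. The sum is lowest in the latest stage of each lineage, at 1353 CPM against 2187 CPM in the earliest granulocyte-like stage, 597 against 1532 CPM in B-lineage-like stages and 260 against 816 CPM in erythroid-like stages.

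Among B-lineage-like cells, Ldha was lower in pre-B and immature B-like cells (133 cells, led by Fcrla, Cd72 and Igkc) than in pro-B-like cells (96 cells, led by Vpreb1, Igll1 and Dntt). Its level in pre-B and immature B-like cells was 91.1, 298, 235 and 68.0 CPM in fl/fl libraries 1 to 4 and 56.8, 91.3, 85.03, 181 and 304 CPM in wt/wt libraries 1 to 5. In pro-B-like cells it was 259, 851, 552 and 435 CPM in the fl/fl libraries and 492, 331, 597, 552 and 405 CPM in the wt/wt libraries. The later stage was lower than the earlier stage in all 9 libraries. Over the 4 libraries with at least 10 cells of both stages, the log2 fold was -1.86 (SE 0.41, edgeR adjusted p = 0.00126). There 23.8% of 787 genes were called, and Ldha was the 1 member tested. With at least 3 cells of a stage, a minimum chosen after the data were seen, all 9 libraries entered and the fold was -1.82 (SE 0.28, edgeR adjusted p = 3.21e-06).

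The other members are given as pooled levels in these 2 stages. Pkm stood at 61.0 CPM (36.2 to 96.4) in pre-B and immature B-like cells and 195 (151 to 248) in pro-B-like cells, Aldoa at 40.7 (21.0 to 71.1) and 127 (92.0 to 171), Tpi1 at 84.7 (54.8 to 125) and 174 (133 to 225), and Gpi1 at 67.8 (41.4 to 105) and 148 (110 to 195). Eno1 stood at 98.3 (65.8 to 141) and 186 (143 to 238). The intervals of Pkm, Aldoa, Tpi1, Gpi1 and Eno1 did not overlap between the stages. They cover counting error only and not the spread between libraries, and the share of all genes with separate intervals was not computed. The intervals of Pgk1, at 98.3 (65.8 to 141) and 142 (105 to 188), and of Gapdh, at 6.78 (0.82 to 24.5) and 32.5 (16.2 to 58.2), did overlap.

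Pooled over libraries, the summed level of erythroid-like cells was lower in their later stage. The intervals given here cover counting error only and not the spread between libraries, and the share of all genes with separate intervals was not computed. Erythroblast-like cells (163 cells, in clusters led by Mgst3 and by globin genes) had a summed level of 260 CPM (213 to 313), against 816 (736 to 902) in early erythroid-like cells (100 cells, led by Mt2, Fam132a and Car1). Ldha stood at 59.6 CPM (38.6 to 88.0) against 253 (210 to 303), Tpi1 at 62.0 (40.5 to 90.8) against 165 (130 to 207), and Eno1 at 28.6 (14.8 to 49.96) against 129 (98.3 to 166). Pkm ran the other way within overlapping intervals, at 23.8 (11.4 to 43.8) against 12.9 (4.73 to 28.04). Pgam1 gave 0 counts in erythroblast-like cells, which allows up to 8.79 CPM. No member passed the filter in the test over the 5 libraries with at least 10 cells of both stages, in which 39.1% of 1072 genes were called, 227 of the 419 calls up. With total counts only, 37.7% of 430 calls were up, and the pooled levels above are scaled in that way.

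The genotypes were then compared, to ask whether blood cells of marrow with Pot1a-deficient stroma differ in these enzymes. In whole libraries every tested member had a positive log2 fold of Pot1a fl/fl over wt/wt, and none passed the threshold. The median of the 7 folds was 0.64, beside -0.0013 over all 4559 genes tested, of which 0.0658% (3 genes, all up) were called and 365 had an unadjusted p under 0.05. DESeq2 called 6 genes and none of the members.

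**Figure D3:**
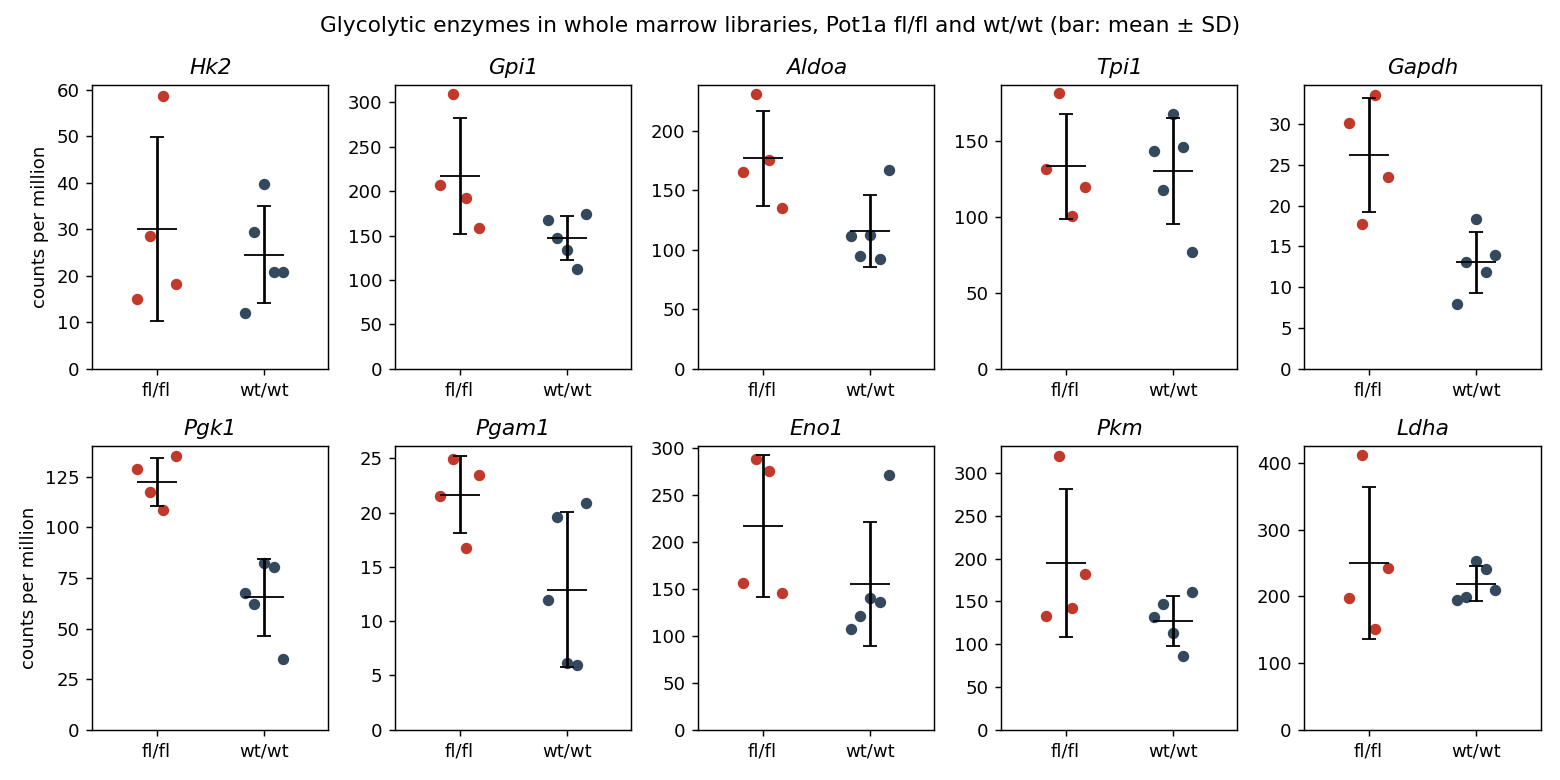
CPM of each enzyme in whole libraries on the vertical axis, Pot1a fl/fl (red, n = 4) left of wt/wt (dark blue, n = 5), with mean and SD as bars. The Pgk1 points, 109 to 135 in fl/fl and 34.9 to 82.4 in wt/wt libraries, are the only ones among the 7 tested members that do not overlap.

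Pgk1, the first ATP-forming enzyme of the pathway and an X-linked gene, had the largest fold of the 7 tested members. It had 129, 117, 109 and 135 CPM in Pot1a fl/fl libraries 1 to 4, against 67.6, 62.0, 82.4, 80.2 and 34.9 CPM in wt/wt libraries 1 to 5. All fl/fl values lay above all wt/wt values. The groups did not overlap, in either direction, for 2.35% of the genes tested. The means were 123 ± 11.8 CPM in fl/fl libraries (SD, n = 4) and 65.4 ± 19.1 CPM in wt/wt libraries (SD, n = 5). The log2 fold was 0.93 (SE 0.25, edgeR adjusted p = 0.332), and 0.93 again with the sex of the library as a term (edgeR adjusted p = 0.287), a fit added after the data were seen.

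Aldoa had 165, 231, 176 and 135 CPM in the fl/fl libraries, against 111, 94.6, 113, 92.1 and 167 CPM in the wt/wt libraries, and its log2 fold was 0.70 (SE 0.26, edgeR adjusted p = 0.470). Gpi1 had 206, 310, 193 and 159 CPM in the fl/fl libraries, against 167, 147, 134, 113 and 174 CPM in the wt/wt libraries, with a log2 fold of 0.64 (SE 0.25, edgeR adjusted p = 0.506). The Aldoa groups overlapped through wt/wt 5, which was high, and the Gpi1 groups through fl/fl 4, which was low. Pkm had 133, 320, 142 and 182 CPM in the fl/fl libraries, against 131, 147, 113, 86.1 and 160 CPM in the wt/wt libraries, with a log2 fold of 0.70 (SE 0.29, edgeR adjusted p = 0.519). Eno1 had 157, 288, 276 and 146 CPM in the fl/fl libraries, against 107, 121, 140, 137 and 272 CPM in the wt/wt libraries, with a log2 fold of 0.56 (SE 0.31, edgeR adjusted p = 0.699). For these genes library fl/fl 2 was the highest, and without it the log2 folds of Gpi1, Pkm and Eno1 were 0.38, 0.31 and 0.33.

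Ldha and Tpi1 differed less. Ldha had 198, 413, 151 and 242 CPM in the fl/fl libraries, against 195, 199, 253, 241 and 209 CPM in the wt/wt libraries, and its log2 fold of 0.27 (SE 0.25, edgeR adjusted p = 0.860) became -0.11 without fl/fl 2. Tpi1 had 131, 181, 100 and 120 CPM in the fl/fl libraries, against 143, 117, 168, 146 and 76.7 CPM in the wt/wt libraries (log2 fold 0.08, SE 0.25, edgeR adjusted p = 0.955), and its fold also turned negative without fl/fl 2, at -0.13. Gapdh, Pgam1 and Hk2, with 50, 44 and 64 counts in all libraries, were not tested. Gapdh averaged 26.2 ± 6.99 CPM in fl/fl and 13.03 ± 3.74 CPM in wt/wt libraries, Pgam1 21.6 ± 3.55 CPM in fl/fl and 12.9 ± 7.15 CPM in wt/wt libraries, and Hk2 30.1 ± 19.9 CPM in fl/fl and 24.5 ± 10.5 CPM in wt/wt libraries (SD, n = 4 and 5).

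The lineage mix moved with these values. Granulocyte-like cells, the highest of the 3 lineages in summed members, gave 27.0% to 45.1% of the counts of Pot1a fl/fl libraries and 18.9% to 30.1% of those of wt/wt libraries, while erythroid-like cells, the lowest of the 3, gave 16.2% to 31.2% in fl/fl and 29.9% to 52.9% in wt/wt libraries. Each gene was therefore also compared within lineages and over the 3 lineages together. There the lineages had the same weights (granulocyte-like 33.2%, erythroid-like 39.6%, B-lineage-like 27.2%) in every library. Monocyte/macrophage-like, mesenchymal/osteolineage-like and unnamed cells did not enter these standardised values. On average monocyte/macrophage-like cells gave 7.03% of the counts of fl/fl and 4.56% of those of wt/wt libraries, and unnamed cells 8.64% and 4.75%.

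With the lineage mix held fixed, 6 of the 7 tested members had folds between -0.00045 and 0.14. By limma on log2(CPM + 10), the log2 fold of fl/fl over wt/wt was 0.06 for Gpi1 (SE 0.20), 0.01 for Pkm (SE 0.29), 0.14 for Aldoa (SE 0.27), 0.11 for Eno1 (SE 0.28), 0.01 for Tpi1 (SE 0.26) and -0.00045 for Ldha (SE 0.27). Standardised Gpi1 averaged 174 ± 18.6 CPM (SD, n = 4) in fl/fl libraries and 166 ± 10.97 CPM (SD, n = 5) in wt/wt libraries. Pgk1 had the largest fold, 0.74 (SE 0.31, limma adjusted p = 0.983). Its standardised level was 125, 110, 78.1 and 128 CPM in the fl/fl libraries, against 60.4, 64.9, 97.3, 78.7 and 26.1 CPM in the wt/wt libraries. Standardised in this way the Pgk1 groups overlapped, fl/fl 3 lying below wt/wt 3 and 4. Gapdh, below the minimum level for a test, had standardised levels of 26.7 to 39.1 CPM in fl/fl libraries and 9.64 to 22.8 CPM in wt/wt libraries, which did not overlap. These levels rest on 50 counts in all libraries, and 90.5% of the Gapdh windows also occur in other genes. The share of all genes without overlap on this scale was not computed. Pgam1 averaged 15.95 ± 6.08 CPM (SD, n = 4) in fl/fl and 10.98 ± 5.07 CPM (SD, n = 5) in wt/wt libraries, and Hk2 averaged 22.5 ± 23.9 CPM (SD, n = 4) in fl/fl and 22.5 ± 16.4 CPM (SD, n = 5) in wt/wt libraries, neither of them tested. No tested member was called (limma adjusted p from 0.983 to 0.999), where 0.0319% of 3133 genes (1 gene) were called and 100 had an unadjusted p under 0.05. The median member fold was 0.06, with 6 of 7 positive, and that of all genes -0.02. The whole-library and the standardised folds differ in the cells included and in scaling as well as in weights. The standardised values leave out all cells outside the weighted lineages, are scaled by total counts and carry a pseudocount.

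**Figure D4:**
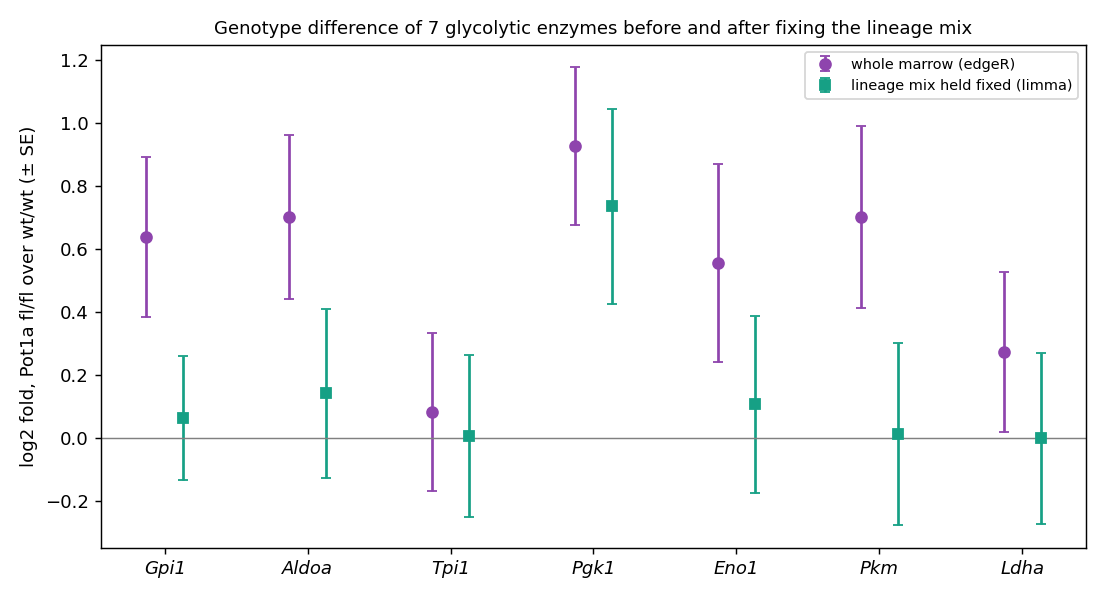
Log2 fold of Pot1a fl/fl over wt/wt (± SE) on the vertical axis for the 7 tested enzymes, in whole marrow (purple circles, edgeR) and with the lineage mix held fixed (green squares, limma). Gpi1 stands at 0.64 and 0.06, Pkm at 0.70 and 0.01, and Pgk1 at 0.93 and 0.74.

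Within granulocyte-like cells no member differed between genotypes by the test. Gpi1 had 363, 411, 376 and 376 CPM in Pot1a fl/fl libraries 1 to 4, against 303, 394, 355, 385 and 245 CPM in wt/wt libraries 1 to 5 (log2 fold 0.12, SE 0.26, edgeR adjusted p = 0.997). The 6 tested members had folds between -0.13 (Tpi1) and 0.30 (Eno1), with Aldoa at 0.17, Pkm at 0.12 and Ldha at -0.06, 4 of them positive with a median of 0.12, where 0.089% of 1123 genes (1 gene) were called and 37 had an unadjusted p under 0.05. Leaving out 1 library at a time gave 0.098 (without fl/fl 2) to 0.57 (without fl/fl 4) for Eno1, 0.020 (without fl/fl 2) to 0.33 (without wt/wt 5) for Aldoa and 0.066 (without fl/fl 2) to 0.22 (without fl/fl 1) for Gpi1. Pgk1 did not pass the filter there. It had 207, 118, 151 and 202 CPM in the fl/fl libraries, against 66.0, 110, 129, 133 and 30.7 CPM in the wt/wt libraries, and fl/fl 2 lay below wt/wt 3 and 4. Of the members too low to test, Gapdh averaged 41.5 ± 28.1 CPM in fl/fl and 27.5 ± 20.4 CPM in wt/wt libraries, Hk2 67.7 ± 72.0 in fl/fl and 55.3 ± 52.4 CPM in wt/wt, and Pgam1 30.03 ± 4.02 in fl/fl and 29.7 ± 14.2 CPM in wt/wt (SD, n = 4 fl/fl and 5 wt/wt).

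Within erythroid-like cells 2 members were tested and 0% of 1802 genes were called (66 at an unadjusted p under 0.05 by edgeR, and 0 by DESeq2). Ldha had a log2 fold of 0.01 (SE 0.49) and Tpi1 of -0.45 (SE 0.40, edgeR adjusted p = 0.998 for each). Ldha in this lineage had 120, 394, 53.7 and 95.7 CPM in fl/fl libraries, against 106, 174, 225, 145 and 131 CPM in wt/wt libraries, so fl/fl 2 was high and each of the other 3 fl/fl libraries lay below at least 4 of the 5 wt/wt libraries. Without fl/fl 2 its fold was -0.72, and that of Tpi1 -0.85. The fold of Tpi1 was -0.19 without fl/fl 4. Of the untested members, Aldoa averaged 78.4 ± 45.1 CPM in fl/fl and 80.3 ± 45.7 CPM in wt/wt libraries, Eno1 81.9 ± 38.9 in fl/fl and 83.2 ± 36.2 CPM in wt/wt, Gpi1 36.5 ± 23.5 in fl/fl and 57.1 ± 43.8 CPM in wt/wt, and Pgk1 41.6 ± 37.6 in fl/fl and 24.8 ± 16.2 CPM in wt/wt (SD, n = 4 fl/fl and 5 wt/wt). Pkm gave 8 counts in each genotype, Gapdh 7 in fl/fl and 5 in wt/wt, Hk2 0 in fl/fl and 4 in wt/wt, and Pgam1 0 in fl/fl and 1 in wt/wt.

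Within B-lineage-like cells 3 members were tested and 0% of 1539 genes were called (51 at an unadjusted p under 0.05 by edgeR, and 0 by DESeq2). Ldha had a log2 fold of 0.18 (SE 0.35), Tpi1 of 0.34 (SE 0.45) and Eno1 of -0.16 (SE 0.41), with edgeR adjusted p from 0.967 to 0.989. The fold of Tpi1 was 0.0022 without fl/fl 2 and 0.47 without fl/fl 3. Ldha had 156, 638, 413 and 303 CPM in the fl/fl libraries, against 305, 206, 346, 379 and 347 CPM in the wt/wt libraries, with the wt/wt values inside the fl/fl range. Pgk1, not tested here, averaged 137 ± 27.1 CPM (SD, n = 4) in fl/fl and 90.1 ± 39.5 CPM (SD, n = 5) in wt/wt libraries. Aldoa, also untested, averaged 112 ± 35.3 CPM in fl/fl and 70.1 ± 31.6 CPM in wt/wt libraries, Gpi1 122 ± 27.6 in fl/fl and 116 ± 37.6 CPM in wt/wt, Pkm 132 ± 55.5 in fl/fl and 153 ± 72.2 CPM in wt/wt, and Gapdh 34.3 ± 19.1 in fl/fl and 13.99 ± 15.1 CPM in wt/wt (SD, n = 4 fl/fl and 5 wt/wt). Pgam1 gave 9 counts in fl/fl and 1 in wt/wt, and Hk2 0 in fl/fl and 2 in wt/wt.

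Whether the genotype difference itself varied between lineages was tested as an interaction. For granulocyte-like against erythroid-like cells, 0 of 6 members were called and 0% of 1631 genes (75 at an unadjusted p under 0.05). For B-lineage-like against erythroid-like cells, 0 of 6 members and 0% of genes were called (63 at an unadjusted p under 0.05), and for granulocyte-like against B-lineage-like cells 0 of 6 members and 0.0613% of genes (1 gene). The largest member estimate was that of Pkm, -1.17 (SE 1.03, edgeR adjusted p = 0.996) for B-lineage-like against erythroid-like cells. No other tool was run on the interactions.

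Genes next to the members in metabolism were described from 5 lists. Between lineages, Adpgk, a kinase that phosphorylates glucose with ADP, was the 1 tested gene of 19 other glycolysis genes listed, of which the tables hold 15, and was higher in granulocyte-like cells, by 3.10 over erythroid-like cells (SE 0.29, edgeR adjusted p = 9.36e-09) and by 3.37 over B-lineage-like cells (SE 0.31, edgeR adjusted p = 1.97e-09). Of 7 genes of the pentose phosphate pathway, which branches from glycolysis and supplies NADPH, 3 of 4 tested were higher in granulocyte-like than in erythroid-like cells (Tkt 1.64, Pgls 0.95 and Taldo1 0.67, with Rpia at 0.39 and edgeR adjusted p = 0.126). Between granulocyte-like and B-lineage-like cells Tkt (2.54) and Taldo1 (2.25) were higher and Pgls was lower (-0.53, edgeR adjusted p = 0.0141). B-lineage-like cells had lower Taldo1 (-1.56), Rpia (-0.89) and Tkt (-0.88) and higher Pgls (1.54) than erythroid-like cells. Bsg, the chaperone of lactate transporters, was the 1 transport gene tested between granulocyte-like and erythroid-like cells and was lower in granulocyte-like cells (-1.64, SE 0.23, edgeR adjusted p = 3.48e-06). It was also lower in B-lineage-like than in erythroid-like cells (-2.53), where Slc16a1, a lactate transporter, had 0.09 (edgeR adjusted p = 0.873). Mpc2, a subunit of the mitochondrial pyruvate carrier, was the 1 gene tested of 10 for pyruvate entry and was higher in granulocyte-like than in erythroid-like cells (0.73, edgeR adjusted p = 0.0177).

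Of 18 genes of the hypoxia response, only Mif, a cytokine also induced by hypoxia, and Bnip3l, a mitophagy receptor, were tested between granulocyte-like and erythroid-like cells, and neither was called (-0.49 and 0.28, edgeR adjusted p = 0.105 and 0.237). Mif was lower in granulocyte-like than in B-lineage-like cells (-1.36) and higher in B-lineage-like than in erythroid-like cells (0.87). Like Ldha, it was lower in pre-B and immature B-like than in pro-B-like cells (-1.96, SE 0.34, edgeR adjusted p = 0.000119), and also in erythroblast-like than in early erythroid-like cells (-1.99, SE 0.32, edgeR adjusted p = 1.48e-08). In the B-cell stages Tkt was lower (-1.53, edgeR adjusted p = 0.0311) and Pgls higher (1.28, edgeR adjusted p = 0.00396), and Bsg was higher in erythroblast-like than in early erythroid-like cells (1.15, edgeR adjusted p = 2.3e-05), where Taldo1 and Tkt were not called.

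Between genotypes in whole marrow no gene of the 5 lists was called. The 4 tested of the 15 other glycolysis genes in the tables were Hk3, a hexokinase of myeloid cells (1.18, SE 0.42, edgeR adjusted p = 0.458), Adpgk (0.72), Bpgm, which makes the bisphosphoglycerate of red cells (-0.60), and Hk1 (-0.41). All 7 pentose phosphate genes were tested, with 6 positive and a median of 0.30, led by Pgd (0.85, SE 0.29, edgeR adjusted p = 0.426) and G6pdx (0.73, SE 0.33), both dehydrogenases that yield NADPH. Of 6 transport genes 2 were tested (Slc16a1 -0.30 and Bsg -0.27), of 10 pyruvate entry genes 6 (1 positive, with Pdk3 at 0.65 and Dlat at -0.35) and of 18 hypoxia response genes 4 (3 positive, with Ero1l at 0.72 and Mif at 0.29). With the lineage mix held fixed, Adpgk stood at 0.34, Pgd at 0.18, G6pdx at 0.35, Rpia at 0.58 and Bsg at -0.01 by limma, none of them called.

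Correlations between the members were uneven. Over 28 sums of a library and a class with at least 10 cells, Gpi1 correlated across sums with Aldoa (Pearson r of log2(CPM + 10) = 0.75), Eno1 (0.74), Pkm (0.74) and Hk2 (0.67), whereas Ldha reached 0.59 with Pgk1 and 0.36 with Gpi1, and Tpi1 gave -0.01 with Eno1. Among 3145 other genes, the 5 most like the summed members included Arpc2 (r = 0.95) and Actr3 (0.89), subunits of the complex that branches actin, Srgn (0.90), the proteoglycan of granules, and Actb (0.89), the cytoplasmic actin. These sums share libraries, depth and lineage, low counts in many of them lower the correlations between members, and the values are descriptions.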

How the data were processed

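Single cells of whole bone marrow had been profiled by Drop-seq in 9 libraries. Per the labels and the study's methods, the authors sequenced on a NextSeq 500, aligned reads to mm10 with STAR, whose version is not given in the sources used here, and counted with the Drop-seq tools. The deposited values were whole-number counts per gene and barcode, not normalized. Whether they count molecules or reads, and how 100 barcodes per library were chosen, is not stated, and they were treated as molecule counts. 

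Barcodes with at least 200 counts and at most 25% mitochondrial counts were kept. Scrublet (scanpy 1.11.5, Python 3.11.15), run on all cells together, marked 19 doublets, which were left in. Library totals between 119459 and 465277 counts make low members imprecise, and intervals cover counting error only. Clusters were made in Seurat 5.3.0 (R 4.3.3) by anchor integration with 2000 variable genes, 20 components and resolution 1, the members and 5 pathway lists being left out of the features. A cluster was named from at least 3 lineage markers among its 50 genes of highest fold, with at least 2 among the top 10, a rule set after the leading genes had been seen.

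Counts were summed per library, or per class and library with at least 10 cells, and entered edgeR 4.0.16, whose quasi-likelihood test was run after filterByExpr and TMM scaling, with p-values adjusted by Benjamini and Hochberg over all genes tested (threshold 0.05). Lineages and stages were compared with library as a block. Standardised CPM (mean at least 50, pseudocount 10) were tested with limma 3.58.1 in libraries with at least 5 cells of each lineage. Scripts were tested on simulated data. Near copies and promoters were read from the mm10 annotation and RefSeq tables, in which all 10 members were found.

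The rule for named genes took the 10 members in every comparison. Untested ones are given as levels or counts, and between stages some of them only within the summed level. Of each other list it names every called gene and the 2 tested genes of largest absolute fold in whole marrow and between granulocyte-like and erythroid-like cells, and the 5 genes most like the summed members, of which 1 is not reported here. Hk1, Bpgm, Pklr and list genes named as not called elsewhere were chosen after their values were seen. Members and lists were chosen with earlier results of these data known. Alternatives were other scalings, no filter, DESeq2 1.42.0, each library left out, wt/wt 2 and 3 as 1 library, a replicate block, other clusterings and doublets removed. Added after seeing the data were a term for sex read from Xist counts, both shallow libraries left out, and lower minimums of 3 and 4 cells.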

Additional observations from a re-analysis of the deposited data

Results flagged for a closer look

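Among 62 groups of libraries examined for a value far from the rest by Dixon's ratio, 4 held one. The rule marks about 1 in 20 groups of independent, normally distributed values. That rate need not hold here, as many values rest on low counts and the lineage values are part of the whole-marrow values. All 4 were values of wt/wt 5, the shallowest wt/wt library. Aldoa in whole marrow stood at 167 CPM there (24 counts), against 92.1 to 113 in the other wt/wt libraries. Eno1 in whole marrow stood at 272 CPM (39 counts), against 107 to 140, and Eno1 in granulocyte-like cells at 429 CPM (14 counts), against 157 to 226. Pkm in erythroid-like cells stood at 98.0 CPM (6 counts), against 0 to 13.3. Without wt/wt 5 the whole-marrow log2 fold of Eno1 was 0.82.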

How the results depend on the processing

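No member was called between genotypes under any alternative run, in whole marrow, within lineages, with the lineage mix held fixed or in the interactions. Pgk1 in whole marrow had log2 folds between 0.82 and 0.99 over 19 alternatives (adjusted p from 0.163 to 0.99997), and between 0.49 and 0.89 with the lineage mix fixed when libraries were left out in turn. Of 139 member values in whole marrow 5 changed sign, and of 119 with the mix fixed 24. Genes called in whole marrow ranged between 1 and 69, with 69 without the filter on low counts.

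The replicate block gave -0.032 for Tpi1 in whole marrow, -0.016 for Ldha within erythroid-like and 0.090 for Eno1 within B-lineage-like cells, all opposite in sign, left 1 gene called in whole marrow and changed no call of a member (Pgk1 0.83, edgeR adjusted p = 0.518). Same-numbered libraries did not deviate together (correlations -0.02, -0.02, -0.17 and 0.01). These values gave no sign of a pairing by number, but with counts this low they cannot exclude one.

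Other changes of sign between genotypes were small. In whole marrow limma on means of scaled cells gave Tpi1 -0.073. Within granulocyte-like cells Ldha had 0.044 without the filter, 0.12 at resolution 0.6, 0.12 without integration and 0.015 with each cell named on its own, Tpi1 0.034 at resolution 0.6 and 0.086 without integration, and Pkm -0.049 with each cell on its own. Within erythroid-like cells Ldha had -0.049 with total counts only, -0.14 without the filter, -0.0078 without doublets and -0.28 without integration. With the mix fixed, Ldha had 0.031 with wt/wt 2 and 3 as 1 library, 0.018 with equal weights, 0.047 at resolution 0.6, 0.13 with each cell on its own and 0.084 without both shallow libraries, Tpi1 -0.20 with each cell on its own and -0.071 without both shallow libraries, and Pkm -0.14 with each cell on its own.

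Leaving out 1 library at a time gave, in whole marrow, -0.11 to 0.40 for Ldha and -0.13 to 0.19 for Tpi1. With the mix fixed it gave -0.035 to 0.35 for Aldoa, -0.030 to 0.32 for Eno1, -0.010 to 0.12 for Gpi1, -0.32 to 0.16 for Ldha, -0.25 to 0.18 for Pkm and -0.15 to 0.12 for Tpi1. It gave -0.25 to 0.072 for Ldha, -0.12 to 0.35 for Pkm and -0.25 to 0.0079 for Tpi1 within granulocyte-like cells, -0.72 to 0.24 for Ldha within erythroid-like cells, and -0.28 to 0.46 for Ldha and -0.29 to 0.10 for Eno1 within B-lineage-like cells. Most of the lowest values came without fl/fl 2.

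Between granulocyte-like and erythroid-like cells 3 members were called with total counts only, where 72.5% of all genes tested were (Ldha 0.45 and Tpi1 0.46 were not), 8 without the filter (17.7% of genes; Tpi1, at 0.66, was not), 2 with each cell on its own (53.1%), where only those 2 were tested, and 4 to 6 with a library left out (607 to 796 genes). Between granulocyte-like and B-lineage-like cells 5 were called without the filter (12.7% of genes), 6 with wt/wt 2 and 3 as 1 library (48.2%), 5 at resolution 0.6 (45%) and 3 to 5 with a library left out (517 to 613 genes; 5 members without fl/fl 3 or wt/wt 2). There Ldha had -0.60 with total counts only and was called, 0.011 with DESeq2 size factors, 0.071 at resolution 0.6, 0.084 without integration, 0.18 with each cell on its own and -0.14 to 0.083 with a library left out. Between B-lineage-like and erythroid-like cells 4 were called without the filter (11.8% of genes) and 1 to 2 with a library left out (477 to 601 genes; 2 members without wt/wt 1). Between the erythroid-like stages 2 were called without the filter (5.59% of genes), 1 without integration (33.9%) and 0 to 1 with a library left out (269 to 423 genes; 1 member without fl/fl 3). More members passed the filter in most of these settings. The cause of the other changes was not tested. With a library left out, the numbers of genes and members tested are not given here. Those counts of calls thus have no share beside them. In the main fits 57%, 49.9%, 40.6% and 39.1% of genes were called, in the order of the comparisons above. Depth limits Hk2, Pgam1 and Gapdh, with 64, 44 and 50 counts, to levels without a test.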

Other observations

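Classes too small for the tests are given as pooled levels with exact 95% Poisson intervals, which cover counting error only. The unnamed cluster of 60 cells, led by Ms4a4b, Eif4h, Ifitm1 and Angpt1, had a summed member level of 1916 CPM (1712 to 2138), with Ldha at 443 CPM (348 to 556), Tpi1 at 239 (171 to 326) and Gpi1 at 263 (191 to 354). Monocyte/macrophage-like cells (64 cells) had a summed level of 1448 CPM (1262 to 1655), with Pkm at 308 (226 to 411), Gpi1 at 188 (125 to 271) and Hk2 at 87.2 (46.4 to 149). With at least 4 cells of a class per library, a minimum chosen after the data were seen, Gpi1 was lower in monocyte/macrophage-like than in granulocyte-like cells (log2 fold -1.32, SE 0.30, edgeR adjusted p = 0.000777).

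The 17 mesenchymal/osteolineage-like cells, the class at which the deletion was aimed, gave 28 member counts, a summed level of 786 CPM (522 to 1136), with Ldha at 253 (116 to 480). They are too few to compare genotypes.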
